A study of Mus musculus with 10 samples.

Results

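Genes of antigen presentation and of the interferon system were followed across 5 tissues of adult female C57BL/6 mice, an inbred laboratory strain: liver, white adipose tissue, hypothalamus, pancreas and muscle. The members were taken by gene symbol. They are the H2 genes of the mouse major histocompatibility complex, B2m, Tap1, Tap2, Tapbp and Cd74, the interferons and their receptors, and the Irf factors. Also taken were the genes named Ifi, Isg, Oas, Mx, Gbp, Igtp or Irgm, here grouped as interferon-induced, and the Fc receptor genes Fcgr and Fcer1g. The rule found 91 probe sets of 74 genes, among 7542 probe sets that the annotation gives to 1 gene each, of 6137 genes in all. A probe set is the group of short DNA probes that reports 1 message on an Affymetrix array. Of the 91, 57 are on chip A and 34 on chip B, and 17 are of family design, with probes that may also bind messages of related genes. This matters most for class I, whose genes are close copies of each other.

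Each tissue was hybridised once to each chip, giving 10 arrays. With 1 sample of each tissue there was no spread between animals, no test could be made, so the small number of arrays limits how precise any value can be. The labels give no treatment, and do not say whether a sample came from 1 mouse or a pool. For 1 of the tissues the labels differ, with white adipose tissue as the source and a preconfluent state in the title, and this sample is called the adipose-labelled sample. Its 5 fat cell marker genes, Adipoq, Retn, Lep, Fabp4 and Lipe, were all above noise and highest there. The marker genes of the other tissues were likewise above noise in their own tissue, 5 of 5 for muscle, liver and hypothalamus and 4 of 4 for pancreas. Alb, the albumin gene of liver, read 18124 in liver but also 26258 in pancreas and 8226 in muscle, on a scale of arbitrary units of intensity.

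Class I molecules, made of an H2 heavy chain and the light chain encoded by B2m, carry peptides from inside a cell to its surface, where CD8 T cells read them. Class II molecules, made of an alpha and a beta chain assembled with the help of the invariant chain Cd74, carry peptides from ingested proteins to CD4 T cells, and are found chiefly on macrophages, dendritic cells and B cells. Interferons act through receptors on the cell surface to switch on a broad set of genes, among them class I genes, peptide transporters and a family of large GTPases that act against microbes inside the cell. Nearly every nucleated cell can make class I, but resting neurons make little of it.

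An intensity was taken as above noise where it exceeded the noise bound of its array, the size of the array's 1st percentile, since many deposited values lie below 0. On chip A, pancreas and muscle had bounds of 1166 and 1065, while those of the adipose-labelled sample, liver and hypothalamus were 389.6, 295.4 and 258.0. On chip B the bounds were 2606 and 1638 in pancreas and muscle, and 918.2, 792.0 and 649.1 in the other 3. A message of modest level could therefore be seen in liver, hypothalamus or the adipose-labelled sample and be missed in pancreas or muscle.

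Of the 91 member probe sets 40, or 44.0%, were above noise in at least 1 tissue, against 53.5% of all single-gene probe sets. They represent 32 genes, and the other 42 genes were below noise in every tissue by every probe set. Liver had 35 members above noise (38.5%, against 33.2% of all single-gene probe sets) and the adipose-labelled sample 31 (34.1%, against 32.2%). Hypothalamus had 18 (19.8%, against 39.5%), although its arrays had the lowest noise bounds. Pancreas had 11 (12.1%, against 14.6%) and muscle 12 (13.2%, against 17.0%).

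The tissues differed more in where members were highest. The highest value was above noise for 37 members. For 32 of these it was in liver or the adipose-labelled sample, against 1214 of 3493 single-gene probe sets. This count leaves the noise bounds of the other tissues aside. It takes in Tap1, Irf2, Irf7, Ifngr1, Gbp2, Gbp3, Gbp7, Ifi47, Irgm1, Ifih1, Isg15 and an H2-Eb1 probe set. Their values lay under a bound of pancreas or muscle, so their highest tissue is not known. By tissue, 17 members were highest in the adipose-labelled sample (18.7%, against 7.65%), 15 in liver (16.5%, against 8.45%), 4 in pancreas (4.40%, against 8.21%), 1 in muscle (1.10%, against 7.76%) and none in hypothalamus (0 of 91, against 14.3%). Without family probe sets the counts were 12, 10, 4, 1 and 0 of 74. Under another scaling of the arrays, by the hybridisation spikes added to each sample, 23 were highest in the adipose-labelled sample, 10 in liver, 3 in muscle and none in pancreas or hypothalamus. With quantile normalization 19 were highest in the adipose-labelled sample, 9 in liver, 7 in muscle, 4 in pancreas and none in hypothalamus.

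**Figure D1:**
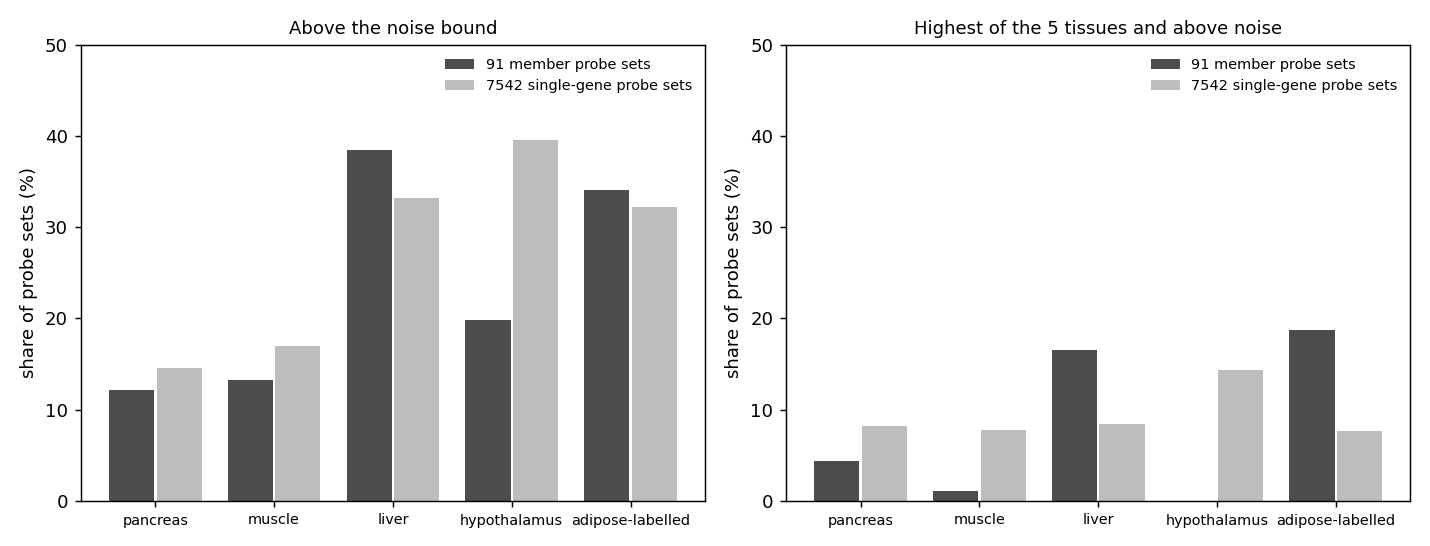
Share of the 91 member probe sets (dark bars) and of all 7542 single-gene probe sets (light bars), in percent, that were above the noise bound of their array (left) and that had their highest value, above noise, in each of the 5 tissues (right). In hypothalamus 19.8% of the members against 39.5% of all were above noise, and no member was highest there. The right panel leaves the noise bounds of the other tissues aside.

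A stricter count took a probe set as selective for a tissue where its intensity was above noise and exceeded every other tissue by a factor of 4 or more. Intensities under 175 (chip A) or 123 (chip B) were raised to that floor first, and the noise bounds of the other tissues did not enter the rule. Liver had 3 selective members, Igtp, Ifi47 and Isg15 (3.30%, against 2.57% of all single-gene probe sets), and the adipose-labelled sample 1, H2-Aa (1.10%, against 1.10%). The liver calls rest on values of pancreas and muscle that were below noise: the pancreas bounds leave a fold of at least 1.25 for Igtp and none for Ifi47 and Isg15, and with each array's noise bound as the floor liver had 0. The liver value of Isg15, 877.8, also lay under the bound of the adipose-labelled sample, 918.2. No member was selective for pancreas (against 1.72%), muscle (against 1.22%) or hypothalamus (against 2.16%). A further 4 were above noise in both liver and the adipose-labelled sample and exceeded the values of the other 3, raised to the floor in the same way, by a factor of 4 or more in each. These were B2m, H2-Ab1 and a probe set each of H2-D1 and H2-K1, or 4.40% of the members against 0.517% of all single-gene probe sets. This pair of tissues was chosen after the values were seen, and 3 of the 4 probe sets are of family design, so that 1 of 74 members was called without them. That 1, H2-Ab1, has a liver value of 1130, under the chip B bounds of pancreas and muscle, so no 4-fold excess over those tissues is shown, and it was not called with noise bounds as the floor.

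Class I heavy chains were measured by 18 probe sets of 12 genes, and 6 probe sets of 3 genes were above noise in some tissue. H2-D1 and H2-K1 are the class I chains that C57BL/6 mice use to present peptides to CD8 T cells. The H2-D1 probe set M69069_f_at read 10457 in liver and 6145 in the adipose-labelled sample, against 618.3 in muscle, 360.1 in hypothalamus and -538.3 in pancreas. Liver was thus 29.0 times hypothalamus and the adipose-labelled sample 17.1 times, and both were at least 5.27 times the other 3 tissues, where "at least" marks a fold set by a noise bound. M69068_f_at, for the same gene, read 11637 in the adipose-labelled sample, 10783 in liver, 4799 in pancreas, 2860 in muscle and 1892 in hypothalamus. The H2-D1 probe set on chip B read 16878 in liver, 12842 in the adipose-labelled sample, 6795 in pancreas, 1480 in muscle and 1059 in hypothalamus. All 3 put liver and the adipose-labelled sample on top and hypothalamus under both, but they did not give the same level in pancreas. The remaining H2-D1 probe set, M69069_i_at, was below noise in all 5 tissues.

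H2-K1 followed the same order. Its probe set m69070_f_at read 5490 in liver and 5128 in the adipose-labelled sample, with pancreas at 706.5, muscle at 260.6 and hypothalamus at 15.9 all below their noise bounds, and both upper tissues at least 4.40 times the others. The other, u47329_f_at, was above noise in all 5 tissues, at 14167 in liver, 7984 in the adipose-labelled sample, 3194 in pancreas, 2685 in muscle and 914.1 in hypothalamus. All 5 of these H2-D1 and H2-K1 probe sets are of family design, so the sum of related class I messages may be what they report. Which of liver and the adipose-labelled sample was higher turned with the scaling for M69068_f_at (by the 75th percentile), and for m69070_f_at and the chip B probe set of H2-D1 (by quantiles or spikes).

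H2-Q10, a class I chain that liver secretes into the blood, had another pattern. Its probe set, not of family design, read 12886 in liver, 4579 in muscle, 3263 in pancreas, 1795 in the adipose-labelled sample and 712.2 in hypothalamus. Liver was 2.81 times muscle and 7.18 times the adipose-labelled sample, so here the 2 tissues that lay close for H2-D1 and H2-K1 were far apart. Other genes of liver were also above noise in muscle and pancreas, among them Alb, with the values given above, and Serpina1a, a secreted protease inhibitor, at 28666 in liver, 3949 in pancreas and 2787 in muscle. Apoh and Cyp3a11, also made in liver, at 23015 and 27949 there, were below noise in both. Their part in the muscle and pancreas values of H2-Q10 was not tested. The 9 class I genes below noise everywhere were H2-Bl, H2-D4, H2-M1, H2-M2, H2-M3, H2-Q1, H2-Q8, H2-T3 and H2-T24.

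B2m, the light chain that every classical class I molecule needs, was among the clearest members. Its probe set, of family design, read 24597 in liver and 20744 in the adipose-labelled sample, against 1602 in muscle, 1534 in pancreas and 1398 in hypothalamus. Both were at least 7.96 times the other 3 tissues, and liver was 17.6 and the adipose-labelled sample 14.8 times hypothalamus. With quantile or spike scaling the adipose-labelled sample was the higher of the pair. Tap1, a subunit of the pump that brings peptides to class I molecules, was above noise in liver alone, at 464.0, with 195.9 in the adipose-labelled sample, 7.0 in hypothalamus, -43.0 in pancreas and -92.2 in muscle. Tapbp, or tapasin, which holds the pump to empty class I molecules, was above noise in all 5 tissues, at 7932 in the adipose-labelled sample, 5683 in liver, 4224 in muscle, 1684 in hypothalamus and 1289 in pancreas. Tap2 was below noise throughout. B2m and Tapbp differed in how far muscle lay below liver. For B2m muscle read 1602, just under its chip B bound of 1638, against 24597 in liver, and for Tapbp 4224 against 5683. Since the top tissue of B2m turned with the scaling, no difference in the top tissue is shown. The liver value of Tap1 lay under the bounds of pancreas and muscle, so its order against those tissues is not known.

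The promoters of the shared class I genes were read from RefSeq (mouse build GRCm38.p6), where 60 of the 74 genes had an entry. The stretches below end at the base before the annotated start, 5′ to 3′ on the gene's own strand, and are shown because these 3 genes had the pattern of liver and the adipose-labelled sample above the rest. Capitals mark matches, on either strand, to the interferon regulatory factor motif GAAANNGAA or GAANNGAAA, which can overlap each other, and to the kappa B motif GGGNNTTCC.
B2m, chr2:122147487-122147686, plus strand: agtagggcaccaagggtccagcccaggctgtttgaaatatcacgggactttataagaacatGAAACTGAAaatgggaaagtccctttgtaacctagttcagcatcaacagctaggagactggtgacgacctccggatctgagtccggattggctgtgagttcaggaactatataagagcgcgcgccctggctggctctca
H2-D1, chr17:35262894-35263093, plus strand: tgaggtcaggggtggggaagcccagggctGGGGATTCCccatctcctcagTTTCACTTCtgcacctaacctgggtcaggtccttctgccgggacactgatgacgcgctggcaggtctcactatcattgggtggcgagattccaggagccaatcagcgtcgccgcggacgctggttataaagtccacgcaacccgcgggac
H2-K1, chr17:34000334-34000533, minus strand: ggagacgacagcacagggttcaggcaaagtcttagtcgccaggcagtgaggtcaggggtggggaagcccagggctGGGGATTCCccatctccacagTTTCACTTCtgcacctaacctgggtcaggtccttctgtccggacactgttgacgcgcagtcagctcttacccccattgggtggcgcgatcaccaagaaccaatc
The H2-D1 and H2-K1 stretches (for H2-K1, 1 of the starts listed) share a run of 46 identical bases and hold a kappa B match followed by an interferon regulatory factor match, while in B2m only the latter motif was matched. These letters fix the spacing of the kappa B motif, and a site of another length would not be found by them. Within 250 bases before to 50 after the start, the interferon regulatory factor motif was found in 28 of 60 member genes (46.7%), against 16.8% of 27025 genes. The kappa B motif was found in 8 (13.3%, against 6.58%). A match describes the letters and is not shown to be a site in use. By group, the interferon regulatory factor motif was in 10 of 10 interferon genes, 6 of 7 GTPase genes, 5 of 7 class I heavy chains and none of 6 class II genes.

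Class II genes had a different order from class I. They were measured by 16 probe sets of 9 genes. All 9 probe sets that were above noise anywhere, of 4 genes, had their highest value in the adipose-labelled sample. This held under each of the scalings tried, with a limit from noise for H2-Eb1 given below. Of all single-gene probe sets 7.65% had their highest value, above noise, in that sample. Several of the 9 report the same gene, H2-Aa, so they are not separate observations. Cd74, the invariant chain, read 14207 in the adipose-labelled sample, 3774 in liver, 1341 in pancreas, 374.5 in muscle and 12.9 in hypothalamus, the last 3 below noise. The adipose-labelled sample was 3.76 times liver and at least 21.9 times hypothalamus. H2-Ab1, the beta chain of the I-A molecule, read 4091 in the adipose-labelled sample and 1130 in liver, 3.62-fold lower. It was below noise at 248.0 in muscle, -23.0 in pancreas and -296.8 in hypothalamus.

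H2-Aa, the matching alpha chain, had 5 probe sets. The 1 not of family design read 5685 in the adipose-labelled sample, 1274 in liver, 1112 in muscle, 586.4 in pancreas and 43.8 in hypothalamus, with the adipose-labelled sample 4.46 times liver. The other 4 read between 1313 and 4457 in the adipose-labelled sample, and between 370.2 and 1707 in liver. In muscle, 2 of them were above noise, at 1560 and 1753, and in hypothalamus 1 was, at 357.1. They thus kept the adipose-labelled sample on top.

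H2-Eb1, the beta chain of the I-E molecule, read 6177 in the adipose-labelled sample and 2756 in liver by its probe set x00958_s_at. Muscle at 827.2, pancreas at 745.2 and hypothalamus at 430.8 were below noise. The other H2-Eb1 probe set, Msa.952.0_at, disagreed with this spread. It read 1444 in the adipose-labelled sample, 1275 in pancreas, 1267 in muscle, 896.4 in hypothalamus and 592.5 in liver. Only the adipose-labelled sample and hypothalamus were above noise by it. Its value of 1444 lay under the chip B bounds of pancreas and muscle, so its highest tissue is not known. Which probe set reports the gene better was not tested. All 3 probe sets of H2-Ea, the alpha chain of I-E, were below noise, and mice with the H2-b haplotype such as C57BL/6 are known not to express this gene. H2-DMa and H2-DMb1, which exchange peptides on class II molecules, and H2-Oa and H2-Ob, which restrain that exchange, were below noise too.

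**Figure D2:**
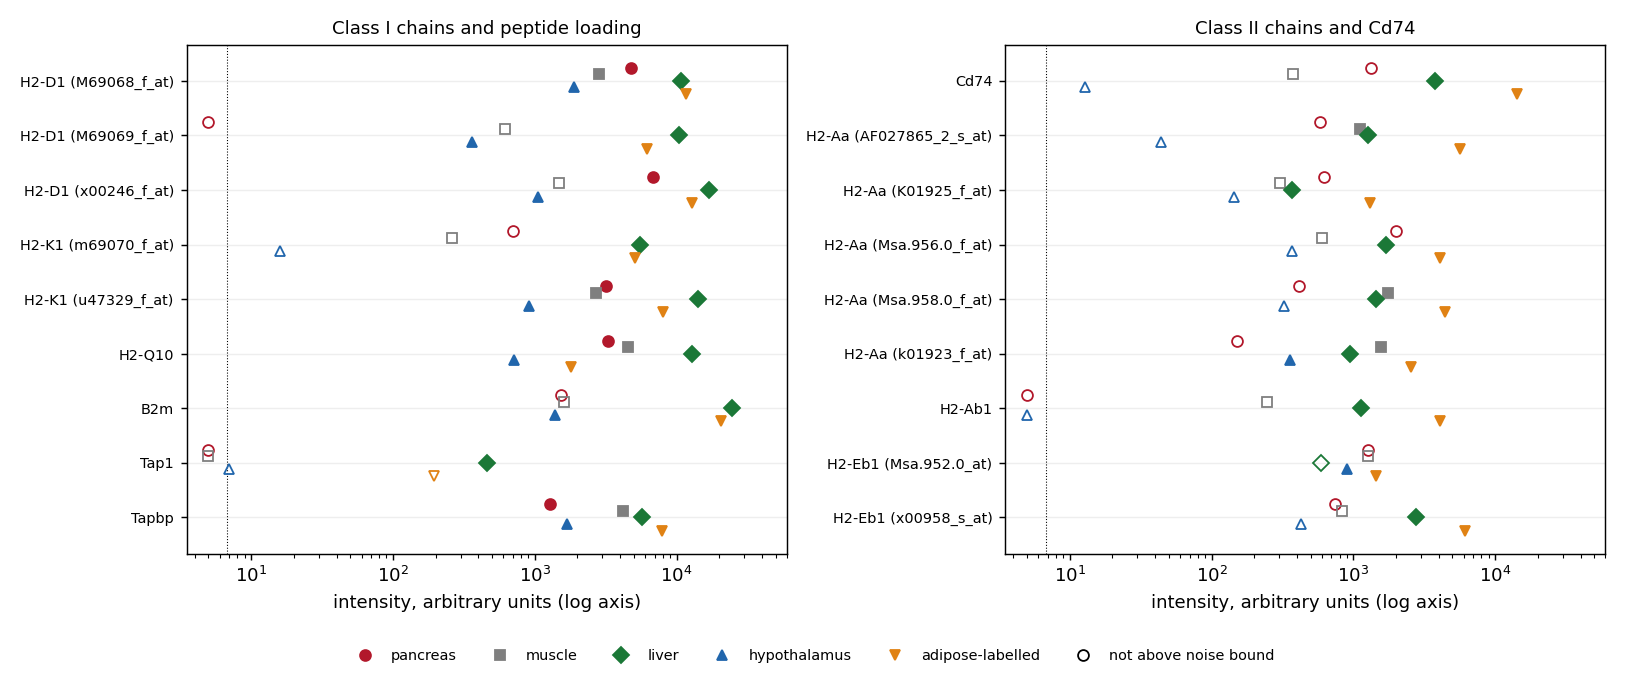
Intensity in arbitrary units (log axis) of class I and peptide loading probe sets (left) and class II probe sets (right) that were above noise in at least 1 tissue, with 1 symbol per tissue. Filled symbols lie above the noise bound of their array and open symbols do not, and values left of the dotted line are 5 or lower and are drawn at 5. Liver and the adipose-labelled sample lie together for B2m (24597 and 20744) and apart for Cd74 (3774 and 14207).

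The ratio of liver to the adipose-labelled sample sets the classes apart within these samples. Over the 6 class I and B2m probe sets above noise in both, leaving out H2-Q10, it ran from 0.927 to 1.77 with a median of 1.25, and was above 1 for 5 of 6. For the 8 class II probe sets above noise in both it ran from 0.224 to 0.446 with a median of 0.304, and was above 1 for none. Over all 1858 single-gene probe sets above noise in both, the median was 0.869, the quartiles 0.612 and 1.24, and 39.7% were above 1. The class II ratios were therefore all below the lower quartile of all probe sets, and the class I ratios all above their median. With quantile or spike scaling, liver stayed above the adipose-labelled sample only for M69069_f_at and u47329_f_at among the 6. The place of the ratios against all probe sets was not recomputed under those scalings. The probe sets within each class share genes and related sequences, and are not independent of each other.

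**Figure D3:**
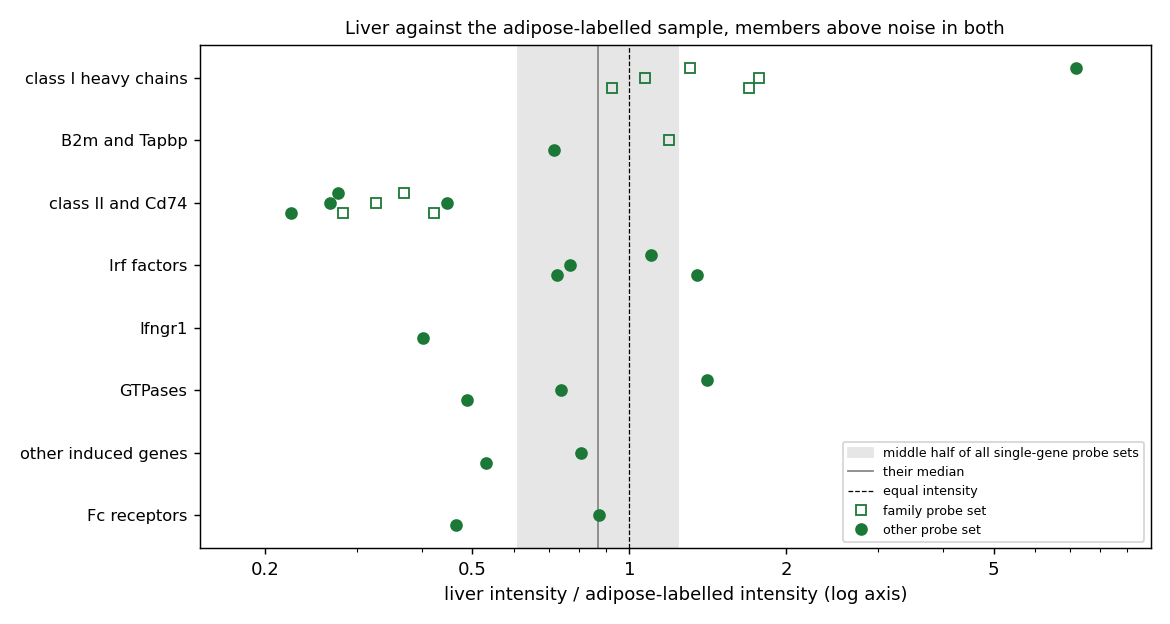
Ratio of the intensity in liver to that in the adipose-labelled sample (log axis) for member probe sets above noise in both, by group, with open squares for family probe sets and filled circles for others. The grey band runs from 0.612 to 1.24, the quartiles of all 1858 single-gene probe sets above noise in both, and the class II points lie between 0.224 and 0.446.

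Markers of macrophages, which carry class II, were set beside these values. Of 24 such markers 16 were measured. Of these, 11 were above noise in the adipose-labelled sample, 8 in liver, 6 in hypothalamus and 2 each in pancreas and muscle. The shares of all single-gene probe sets, in that order, were 32.2%, 33.2%, 39.5%, 14.6% and 17.0%. A listed gene was represented by its probe set of highest mean level, so counts and shares are not strictly alike. The summed intensity of the markers, over positive values, was 37361 in the adipose-labelled sample, 17877 in pancreas, 12882 in liver, 9320 in muscle and 8190 in hypothalamus. This sum takes in values below noise, among them 2375 for C1qc and 1876 for C1qb in pancreas, where the bound was 2606. The order of pancreas and liver in it is therefore not known. Of the 16 markers, 8 had their highest value, above noise, in the adipose-labelled sample. Csf1r, the receptor that macrophages need to live, read 1758 there and Mrc1, their mannose receptor, 1746. Both were below noise elsewhere, but both values lay under the pancreas bound of 2606. C1qa, C1qb and C1qc, the chains of complement C1q, read 4474, 4782 and 4498 in the adipose-labelled sample. They read 1829, 1932 and 1775 in liver, and 1204, 961.9 and 704.8 in hypothalamus. Clec4f, a marker of the macrophages that reside in liver, was above noise in liver alone, at 1337. Other markers had another order: Laptm5 was highest in pancreas, at 2330 against 867.2 in the adipose-labelled sample, Cd14 read 2197 in muscle and 1707 in the adipose-labelled sample, and Lyz2, at 10220 in the adipose-labelled sample, read 7271 in pancreas, where class II was below noise. Adgre1, Cybb, Msr1 and Marco were below noise in all 5 tissues. In such bulk samples a difference in the number of cells of a type and a difference in message per cell cannot be told apart, and the part of macrophages in the class II values was not tested.

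In hypothalamus 6 of the 16 measured macrophage markers were above noise, beside 39.5% of all single-gene probe sets. Among the 6 were C1qa, C1qb, C1qc and Ctss (1195), while Csf1r, Mrc1, Cd68, Cd14 and Laptm5 were below noise. Of class II, Cd74, H2-Ab1, the H2-Eb1 probe set x00958_s_at and 4 of 5 H2-Aa probe sets were below noise there. The H2-Eb1 probe set Msa.952.0_at was above it, at 896.4, as was the remaining H2-Aa probe set, at 357.1. Other cells that carry class II were followed by their own markers. Of 14 measured B and plasma cell markers 4 were above noise in liver, 3 each in pancreas, hypothalamus and the adipose-labelled sample, and 1 in muscle. The shares of all single-gene probe sets given for the macrophage list apply here and to the endothelial list. Ighm, the heavy chain of IgM made by B cells, read 9890 in the adipose-labelled sample and 8464 in pancreas, and Ms4a1, the CD20 gene, 3198 in pancreas, 2306 in liver, 848.4 in hypothalamus and 660.2 in the adipose-labelled sample. Cd79a, Cd79b, Cd22 and Pax5 of B cells were below noise in all tissues. In pancreas the class II genes were below noise, while Ighm was high and Ptprc, the CD45 gene of all leukocytes, read 7267. Of the 10 listed genes shared by leukocytes, however, only 2, Ptprc and Laptm5, were above noise in pancreas. Of the same 10, 5 were above noise in the adipose-labelled sample, 4 in liver, 2 in hypothalamus and 1 in muscle, and the same shares apply. With a pancreas noise bound of 2606 on chip B, whether the lists ran together there is not known. None of 12 measured T and NK cell markers was above noise in any tissue. Of 4 measured dendritic cell markers, Flt3, Ccr7 and Ly75 were below noise everywhere, and the remaining Zbtb46 was highest in pancreas. The endothelial list had 6 of 11 measured genes above noise in the adipose-labelled sample, 3 in liver, 2 in muscle, 1 in hypothalamus and none in pancreas, and its part was not tested either.

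**Figure D4:**
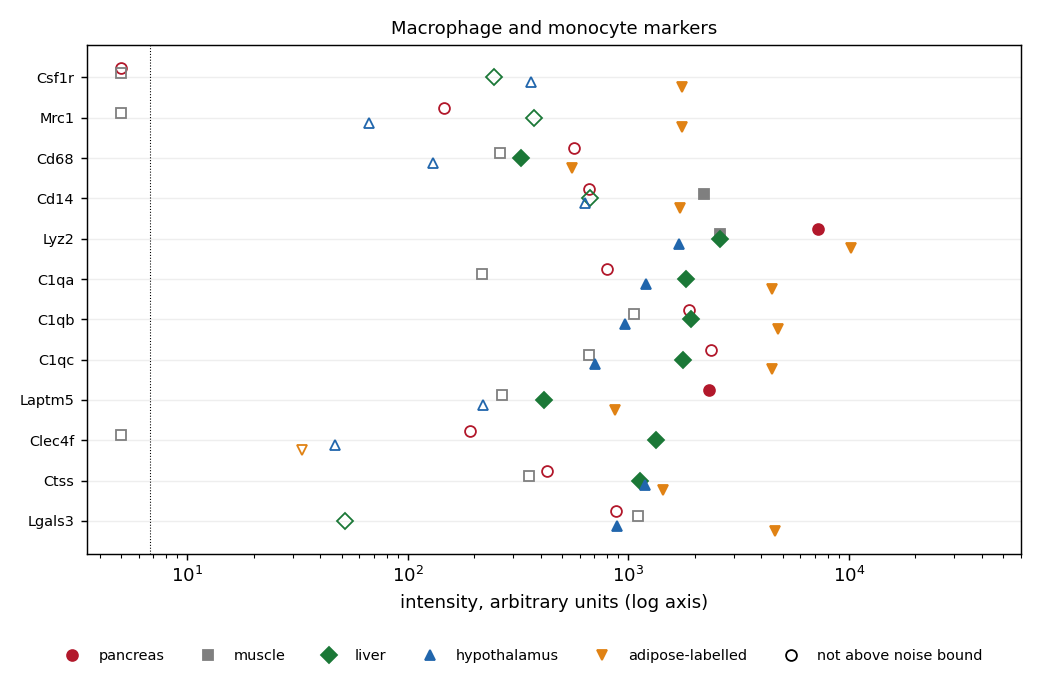
Intensity in arbitrary units (log axis) of macrophage and monocyte markers that were above noise in at least 1 tissue, with symbols and the dotted line as for the class I and class II plot. The adipose-labelled sample is on top for 8 of them, among them Csf1r at 1758 and Mrc1 at 1746, and liver for Clec4f at 1337.

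No interferon message was seen. The 13 probe sets of 11 interferon genes, Ifnb1, Ifng and 9 of the interferon alpha family, were below noise in all 5 tissues, and at this noise a low level would not have been detectable. Of the receptors, Ifngr1, which binds interferon gamma, read 982.7 in the adipose-labelled sample, 394.1 in liver and 309.3 in hypothalamus, with 485.0 in muscle and 403.3 in pancreas below noise. The adipose-labelled sample was 2.49 times liver. Ifnar1, which binds interferons alpha and beta, read 1204 in pancreas, just above the bound of 1166, and 299.4 in hypothalamus. It was below noise at 365.8 in the adipose-labelled sample, 122.7 in liver and -246.5 in muscle, and pancreas was not the highest tissue once the arrays were scaled by spikes. Ifnar2 and Ifngr2 were below noise.

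Of 9 genes named Irf, Irf1, Irf2, Irf7, Irf8 and Irf2bp1 were above noise in some tissue, and Irf3, Irf4, Irf5 and Irf9 in none. Irf1, an early target of interferon gamma and an activator of class I genes, read 2273 in pancreas, 2060 in muscle, 1040 in liver, 944.5 in the adipose-labelled sample and 331.2 in hypothalamus, though with spike scaling pancreas lost its place. Irf7, the factor that amplifies the production of interferon alpha, read 761.3 in liver and 565.7 in the adipose-labelled sample and was below noise at 189.1 in pancreas, 131.3 in hypothalamus and -52.1 in muscle, with the order of the pair turned under spike scaling. Irf2, which counters Irf1 at many of its targets, was above noise in the same pair, at 440.1 in the adipose-labelled sample and 319.3 in liver. So was Irf8, a factor of the macrophage lineage, at 454.2 and 349.2, but its values in muscle (851.8) and pancreas (715.5) were higher and below the noise of those arrays, so no order follows. Irf2bp1, a corepressor that the symbol rule also takes in, was above noise in hypothalamus alone, at 513.2.

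Interferon-induced GTPases guard the cell against bacteria and parasites in vacuoles (Igtp, Irgm1, Ifi47, the Gbp genes) or against viruses (the Mx genes). All 7 of the 9 that were above noise anywhere were above noise in liver, 3 were so in the adipose-labelled sample and 1 each in pancreas, muscle and hypothalamus. Of all single-gene probe sets 33.2% were above noise in liver, 32.2% in the adipose-labelled sample, 14.6% in pancreas, 17.0% in muscle and 39.5% in hypothalamus. Liver had the highest value for 5 of the 7, but not for Gbp2 and Mx2. The liver values of Irgm1, Gbp3, Gbp7 and Ifi47 lay under the pancreas bounds, so their order against pancreas is not known. Igtp read 1459 in liver, 261.6 in muscle, 89.4 in the adipose-labelled sample, 8.0 in hypothalamus and -475.3 in pancreas, and only liver was above noise. Liver was at least 5.65 times hypothalamus and at least 3.74 times the adipose-labelled sample, but at least 1.25 times pancreas, whose bound was high. Ifi47 read 1943 in liver, 380.7 in the adipose-labelled sample, 172.3 in pancreas, 137.0 in hypothalamus and -27.1 in muscle. Again only liver was above noise, by at least 2.99 times hypothalamus and at least 2.12 times the adipose-labelled sample, while the bound of pancreas exceeded the liver value.

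Irgm1 too was above noise in liver alone, at 573.7 against 191.4 in muscle, 123.6 in the adipose-labelled sample, 18.9 in hypothalamus and -2.0 in pancreas. Gbp3 was above noise in liver at 361.2, with 339.6 in the adipose-labelled sample under the bound of that array, and the order turned under spike scaling. Gbp7 read 673.5 in liver and 476.3 in the adipose-labelled sample. Gbp2 went the other way, at 675.2 in the adipose-labelled sample and 330.3 in liver, a ratio of 2.04. Mx2 was above noise in all 5 tissues, at 1946 in pancreas, 1527 in muscle, 582.8 in the adipose-labelled sample, 549.0 in hypothalamus and 431.1 in liver, with pancreas no longer highest under spike scaling. Gbp2b and Mx1 were below noise, and C57BL/6 mice are known to carry a defective Mx1.

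Among the other induced genes, Isg15, a small modifier joined to proteins as ubiquitin is, read 877.8 in liver, 215.9 in the adipose-labelled sample, 68.1 in pancreas, -83.4 in hypothalamus and -373.5 in muscle. Its liver value passed the liver bound of 792.0 narrowly. It lay under the bounds of pancreas, muscle and the adipose-labelled sample (918.2), so no excess of liver over those 3 is shown. Ifih1, a sensor of viral RNA, was above noise in liver alone, at 565.8, with 172.8 in the adipose-labelled sample, 45.1 in muscle, -23.9 in hypothalamus and -478.3 in pancreas. Ifit3, which acts against viral RNA, read 420.1 in liver and 520.5 in the adipose-labelled sample, and was below noise at 521.3 in pancreas, 281.6 in muscle and 120.3 in hypothalamus. Ifi27 was high in every tissue, at 16469 in the adipose-labelled sample, 14086 in pancreas, 8750 in liver, 7817 in muscle and 3765 in hypothalamus. Ifitm10, named for its family, was above noise in muscle (1375), the adipose-labelled sample (629.0) and hypothalamus (608.7), and read -573.7 in liver. Ifi202b, Ifi204, Ifi209, Ifit1, Ifit2 and Oas1g were below noise in all tissues. Isg15 and Ifih1 were above noise in liver alone and Ifi27 in all 5, but the liver values of the former lay under the bounds of pancreas and muscle. Their order against those tissues is therefore not known. Between liver and the adipose-labelled sample the order did differ within the group. Liver was at least 1.45 times the adipose-labelled sample for Ifih1, and the adipose-labelled sample was 1.88 times liver for Ifi27.

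Stretches before the start of 3 of the genes seen in liver alone are shown next from RefSeq (GRCm38.p6), because in each of them matches overlap. Capitals mark matches to the interferon regulatory factor motif.
Igtp, chr11:58199356-58199555, plus strand: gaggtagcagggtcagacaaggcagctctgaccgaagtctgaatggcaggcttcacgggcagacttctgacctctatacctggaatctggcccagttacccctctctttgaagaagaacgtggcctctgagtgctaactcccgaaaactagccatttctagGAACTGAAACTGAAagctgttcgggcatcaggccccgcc
Irgm1, chr11:48871421-48871620, minus strand: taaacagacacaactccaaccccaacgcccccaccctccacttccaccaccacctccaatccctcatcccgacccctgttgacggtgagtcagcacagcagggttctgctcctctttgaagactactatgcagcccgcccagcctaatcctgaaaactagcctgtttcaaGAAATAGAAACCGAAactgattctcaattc
Isg15, chr4:156200819-156201018, minus strand: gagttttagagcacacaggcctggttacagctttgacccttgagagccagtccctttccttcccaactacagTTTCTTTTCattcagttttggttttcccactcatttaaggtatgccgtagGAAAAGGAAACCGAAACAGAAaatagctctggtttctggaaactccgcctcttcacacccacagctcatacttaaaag
Igtp and Irgm1 each hold 2 matches to the interferon regulatory factor motif, close to the start, and Isg15 holds 4. Of the other genes above noise in liver alone, Ifih1 held 3 such matches and Gbp3 held 2, while Ifi47 and Tap1 held no match to either motif. Ifit3, above noise in the adipose-labelled sample too, held 3.

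**Figure D5:**
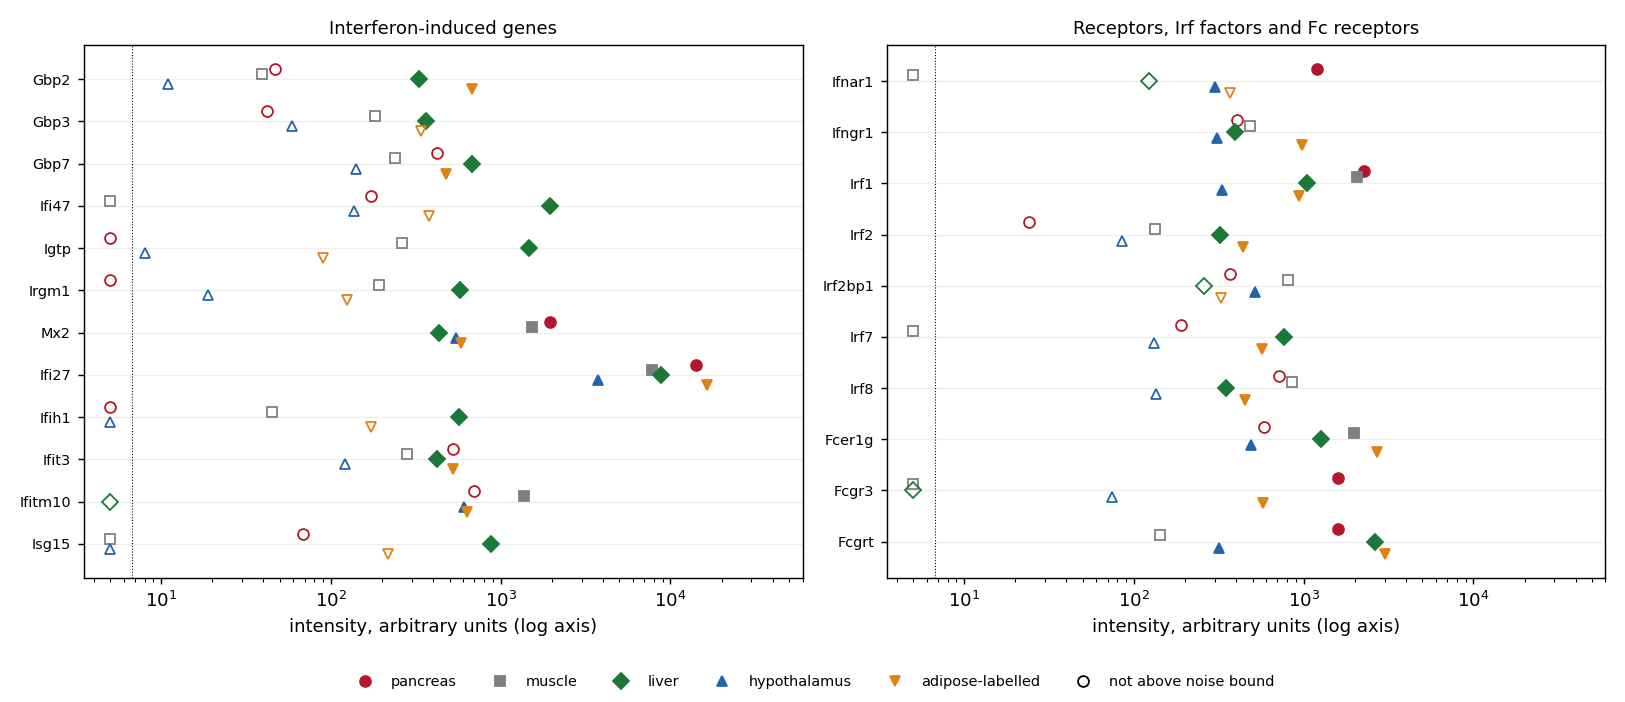
Intensity in arbitrary units (log axis) of interferon-induced genes (left) and of interferon receptors, Irf factors and Fc receptors (right) that were above noise in at least 1 tissue, with symbols and the dotted line as for the class I and class II plot. Ifi47, Igtp, Irgm1, Isg15, Ifih1 and Gbp3 have a filled symbol for liver alone, at 361.2 to 1943.

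Fc receptors bind the tail of antibodies. Fcgrt, which carries IgG across cells, protects it from breakdown and pairs with B2m, read 3007 in the adipose-labelled sample, 2625 in liver, 1598 in pancreas, 315.3 in hypothalamus and 143.3 in muscle, where it was below noise. Liver and the adipose-labelled sample were 8.33 and 9.54 times hypothalamus, and their order turned with scaling by the 75th percentile. Fcer1g, the signalling chain of several Fc receptors on macrophages and mast cells, read 2717 in the adipose-labelled sample, 1969 in muscle, 1262 in liver, 586.4 in pancreas, where it was below noise, and 490.4 in hypothalamus. Fcgr3 read 1588 in pancreas and 577.8 in the adipose-labelled sample, with the other 3 below noise, and pancreas was not highest with spike scaling. Fcgr1 was below noise.

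Other genes of the same pathways, outside the symbol rule, were counted from lists chosen for these tissues with earlier results of these data known. Of 31 genes of antigen processing 22 were measured. Of these, 14 were above noise in liver, 13 in the adipose-labelled sample, 10 in hypothalamus, 7 in pancreas and 5 in muscle. The shares of all single-gene probe sets, in that order, were 33.2%, 32.2%, 39.5%, 14.6% and 17.0%. Cd1d1, a class I-like chain that presents lipids and pairs with B2m, read 2709 in liver and 2136 in the adipose-labelled sample and was below noise in the other 3 tissues, at 39.1 in muscle and 33.8 in hypothalamus. Psmb8, a subunit of the immunoproteasome that cuts peptides for class I, read 1021 in liver and 732.5 in the adipose-labelled sample, again the only tissues above noise. Psmb9, another such subunit, was above noise in liver alone, at 1548. Psmb10, the last of them, was highest in pancreas at 5731, against 994.8 in liver. The liver values of Psmb8 and Psmb9 lay under the bounds of pancreas and muscle, so their order against those tissues is not known. Psmb10 read 909.1 in hypothalamus and 499.4 in the adipose-labelled sample, while Psmb8 was below noise in hypothalamus at 151.2. These 2 subunits thus differed in the order of those 2 tissues.

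Of 46 other genes of the interferon pathway 28 were measured. Of these, 12 were above noise in liver, 9 in the adipose-labelled sample, 7 in hypothalamus and 3 each in pancreas and muscle. The shares of all single-gene probe sets, in that order, were again 33.2%, 32.2%, 39.5%, 14.6% and 17.0%. Ly6e, a surface protein induced by interferon, was above noise in all 5, at 15270 in pancreas, 12480 in liver, 12061 in the adipose-labelled sample, 4550 in hypothalamus and 4377 in muscle. Iigp1, a GTPase of the Igtp family, read 7237 in liver, 456.0 in muscle, 340.6 in the adipose-labelled sample, 39.0 in pancreas and -76.6 in hypothalamus, and liver was at least 6.21 times every other tissue. Usp18, which removes Isg15 from proteins, was above noise in liver alone, at 313.3. Ube2l6, which helps attach Isg15, read 1290 in liver and 436.1 in the adipose-labelled sample. Cxcl9, Cxcl10, Rsad2 and Eif2ak2, also induced by interferon, were below noise in all 5 tissues.

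Over the members as a whole, the median difference of a tissue from the mean of the other 4 was 0.00 on the log2 scale in pancreas, muscle, liver and the adipose-labelled sample and -0.44 in hypothalamus. Over all genes the same medians were 0.00, 0.00, -0.17, -0.02 and, for hypothalamus, -0.04. Many members lie at the floor in every tissue, where this difference is 0, so that the median tells less than the values of the genes above noise.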

How the data were processed

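The deposited tables hold whole-number intensities, on a linear scale, from 1-colour Affymetrix arrays hybridised with biotin-labelled cRNA made from 10 µg of Trizol-extracted RNA, per the labels' protocols. The authors had scaled each array to a common level, since trimmed means lie between 490.9 and 499.0. Between 17.0% and 38.9% of an array's values are below 0, so a signal had been subtracted. No source used here names the software or gives detection calls.

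Controls were left out, and the arrays of a chip were brought to a common mean, taken after trimming 2% at each end. The floor was the median of the 5 array medians of a chip. Symbols came from the platform annotation. A member gene was named with values where a probe set was above noise, and by name alone otherwise. In other lists at most the 6 genes of highest value were to be named; Cd1d1, Psmb8, Psmb9, Hfe, Usp18, Ube2l6, Csf1r, Mrc1, Clec4f, Ctss, Cd14 and several genes below noise were picked outside that rule with their values in view. The groups were corrected once, moving Ifnar1 and Ifnar2 from interferons to receptors. Members and lists were chosen with earlier results of these data known. Levels of different probe sets were not compared, though those of the macrophage markers were summed. The calls were tried on simulated arrays of equal noise. The arrays here differ in noise, so that trial does not cover their unequal bounds. Alternatives were other scalings, floors, folds and noise bounds, probe designs, and leaving out pancreas or muscle arrays. Python 3.11.15, pandas 2.3.3 and numpy 2.4.6 were used. RefSeq windows run from 250 bases before to 50 after the start, and motifs were searched on both strands. A further motif is not reported here.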

Additional observations from a re-analysis of the deposited data

Results flagged for a closer look

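A probe set that the annotation gives to 3 class I genes, m29881_f_at, lies outside the symbol rule, which asks for 1 gene. It read 7942 in liver, 4080 in the adipose-labelled sample, 709.5 in pancreas, 323.3 in hypothalamus and 6.0 in muscle, and it was above noise in liver, hypothalamus and the adipose-labelled sample. It drew attention as a signal in data that the counts of members do not use. The rule for the pair of liver and the adipose-labelled sample, with its low floor, called it, as it did 1 probe set each of H2-D1 and H2-K1. Its design is of the family kind.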

How the results depend on the processing

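Counts of members and medians were recomputed under each alternative: 82 such values stayed near the reported one (counts within 1.5 times) and 27 did not. Of the calls, liver fell from 3 selective members to 0 with the floor at the 75th percentile, with each array's noise bound as the floor, or without relaxed designs (which leaves 17 probe sets), and to 1 with spike scaling. The adipose-labelled sample went from 1 to 0 with 75th percentile scaling or without relaxed designs, to 2 with quantile normalization and to 5 with spikes. Muscle went from 0 to 2 with quantile normalization (H2-Oa and Irf4). At 2-fold, 2 were selective for pancreas, 7 for liver and 9 for the adipose-labelled sample. The pair of liver and the adipose-labelled sample shared 9 at 2-fold, 8 with spikes, 7 without the pancreas arrays (adding Cd74, Fcgrt and another H2-D1 probe set), 1 without family probe sets and 0 without relaxed designs, against 4. The pair rule and the omission of family probe sets were added after the data were seen.

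Above noise, pancreas went from 11 to 7 with the 0.5th percentile as the bound. Without relaxed designs 2 were above noise in pancreas, muscle and liver and 3 in hypothalamus and the adipose-labelled sample. With each array's noise bound as the floor the medians rose to 1.47 (pancreas) and 0.81 (muscle) and fell to -0.67 (liver) and -1.25 (hypothalamus), as the floors themselves differ in that order. Of 37 members the highest tissue changed for 9 with spikes, 3 with quantiles and 2 with the 75th percentile. The geometric mean of the spikes was 5776 in pancreas on chip A against 994 to 1522 in the other tissues. No paired analysis was possible because each tissue has 1 array per chip and the labels carry no replicate numbers. Signal over background limits the rest: a message under the bound of 2606 on the pancreas array of chip B cannot be told from noise.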

Other observations

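Other probe sets given to several genes by the annotation were read in the same way. Of 8 with at least 1 symbol that matches the rule, 5 were above noise in some tissue. Besides the class I probe set above, m11284_s_at read 7074 in liver and 1773 in the adipose-labelled sample, and m35244-2_s_at read 1624 and 1069, both below noise in the other 3 tissues. m33863_s_at was above noise in pancreas at 1363 and in the adipose-labelled sample at 504.4, and af022371_s_at in the adipose-labelled sample alone at 423.0.

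Lgals9, a lectin induced by interferon, read 7180 in liver, 1334 in the adipose-labelled sample, 967.1 in muscle, 782.5 in pancreas and 346.1 in hypothalamus, with liver 5.38 times the next tissue. Hfe, a class I-like regulator of iron that pairs with B2m, was above noise in the adipose-labelled sample alone, at 932.1, with 640.4 in liver. Lgals3bp read 4968 in the adipose-labelled sample and 1767 in liver and was below noise in the other 3 tissues. Pml, the gene of a nuclear body that interferon enlarges, was above noise in all 5 tissues and highest in pancreas, at 3077.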
